A study of Homo sapiens with 6 samples.

Results

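The genes described here are APOB and 8 further genes for the assembly of very low density lipoprotein (VLDL) and its exit from the endoplasmic reticulum (ER), namely MTTP, P4HB, TM6SF2, SAR1B, MIA2, MIA3, SURF4 and CIDEB. They were chosen by name, and all 9 were matched to a row among the 57905 gene IDs of the deposited table. RNA was sequenced from Huh7 cells, an established human hepatoma line. In siASGR1 (3 libraries) the cells carried siRNA to ASGR1 for 72 h, and in siControl (3 libraries) a scrambled siRNA for the same time, in the same serum-containing medium. ASGR1 is the main chain of the liver's asialoglycoprotein receptor. The labels name 1 siRNA treatment per group, so loss of ASGR1 and other effects of that siRNA cannot be told apart. Separate cultures are not stated for the libraries of a group, and the p-values may therefore rest on technical spread alone.

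Apolipoprotein B is a very large protein that hepatocytes and enterocytes use as the scaffold of their triglyceride-rich lipoproteins, with a single copy in each particle. As it enters the ER it is loaded with lipid by the microsomal triglyceride transfer protein, a complex of a lipid transfer subunit (MTTP) and the disulfide isomerase P4HB, and apoB that is not lipidated is degraded. The finished precursor particle leaves the ER in COPII carriers, with cargo receptors and organizers of the exit sites that are needed for bulky cargo.

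Values are FPKM, fragments scaled to exon length and to the library's total, so levels of different genes are comparable per length. Depth rebuilt from the steps between low FPKM was 18486000 to 19288000 fragments in siASGR1 and 16261000 to 19311000 in siControl. Differences were tested with limma on log2(FPKM + 1) over 13568 genes with at least 1 FPKM in at least 3 libraries, with a call at adjusted p below 0.05. Calls covered 61.3% of the tested genes, 20.9% higher and 40.4% lower in siASGR1, and after scaling by median-of-ratios factors over the tested genes they were 30.1% higher and 28.6% lower. The median tested gene had a log2 fold change of -0.13, against -0.0044 after that scaling, so changes of similar size to this shift depend on the scaling. ASGR1 itself was 4.6, 4.82 and 4.71 FPKM in siASGR1, against 17.54, 17.56 and 16.9 FPKM in siControl, in the table of the whole series, whereas the libraries' own files gave 14.65, 15.81 and 14.04 FPKM for siASGR1 and the same siControl values. ASGR1 was the only gene whose values differed between these sources, so the size of its loss is uncertain, and none of the 9 members is affected. The 10 hepatocyte and hepatoma markers examined were all expressed, with summed levels of 7631 to 7929 FPKM in siASGR1 and 3991 to 4104 FPKM in siControl, so they were higher together with APOB. Of the 8 enterocyte markers, summed at 40.8 to 43.8 FPKM in siASGR1 and 35.3 to 35.6 FPKM in siControl, CDX1 was listed at 0 throughout, and FABP2 was at 0 FPKM in siASGR1 and at most 0.02 FPKM in siControl. Others were expressed and moved in both directions, with CDX2 at 27.0 ± 1.48 FPKM in siASGR1 and 19.0 ± 0.44 FPKM in siControl, APOA4 2.33-fold higher, VIL1 at 8.27 ± 0.067 FPKM in siASGR1 and 9.11 ± 0.12 FPKM in siControl, and ALPI 5.98-fold lower. The 8 fibroblast markers summed to 0.68 to 0.95 FPKM in siASGR1 and 6.12 to 7.44 FPKM in siControl. The 4 endothelial markers measured summed to at most 0.21 FPKM in siASGR1 and 0.14 FPKM in siControl, with KDR and TEK listed at 0 throughout, and the 5 macrophage markers summed to at most 2.06 FPKM in siASGR1 and 2.32 FPKM in siControl. The part of these differences in the results below was not tested.

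Among the 7 members that passed the filter on low values, 4 rose in siASGR1 (APOB, MTTP, P4HB and TM6SF2) and 2 fell (SAR1B and MIA3), while SURF4 was not called. Of the mRNAs for building and lipidating the particle, 4 were higher and 1, CIDEB, was not tested. Of those for ER exit 2 were lower, 1 was not called and 1 was not tested. These shares, 4 and 2 of 7, stand against the 20.9% higher and 40.4% lower of all tested genes. With median-of-ratios scaling over the tested genes they were again 4 and 2, against 30.1% and 28.6%. With only 7 genes, the shares are too few to read against either background. In bulk RNA, fewer cells that express a gene and less of its RNA per cell cannot be told apart. The median log2 fold change of these 7 genes was 0.47, against -0.13 for all tested genes. MIA2 and CIDEB were below the filter.

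**Figure D1:**
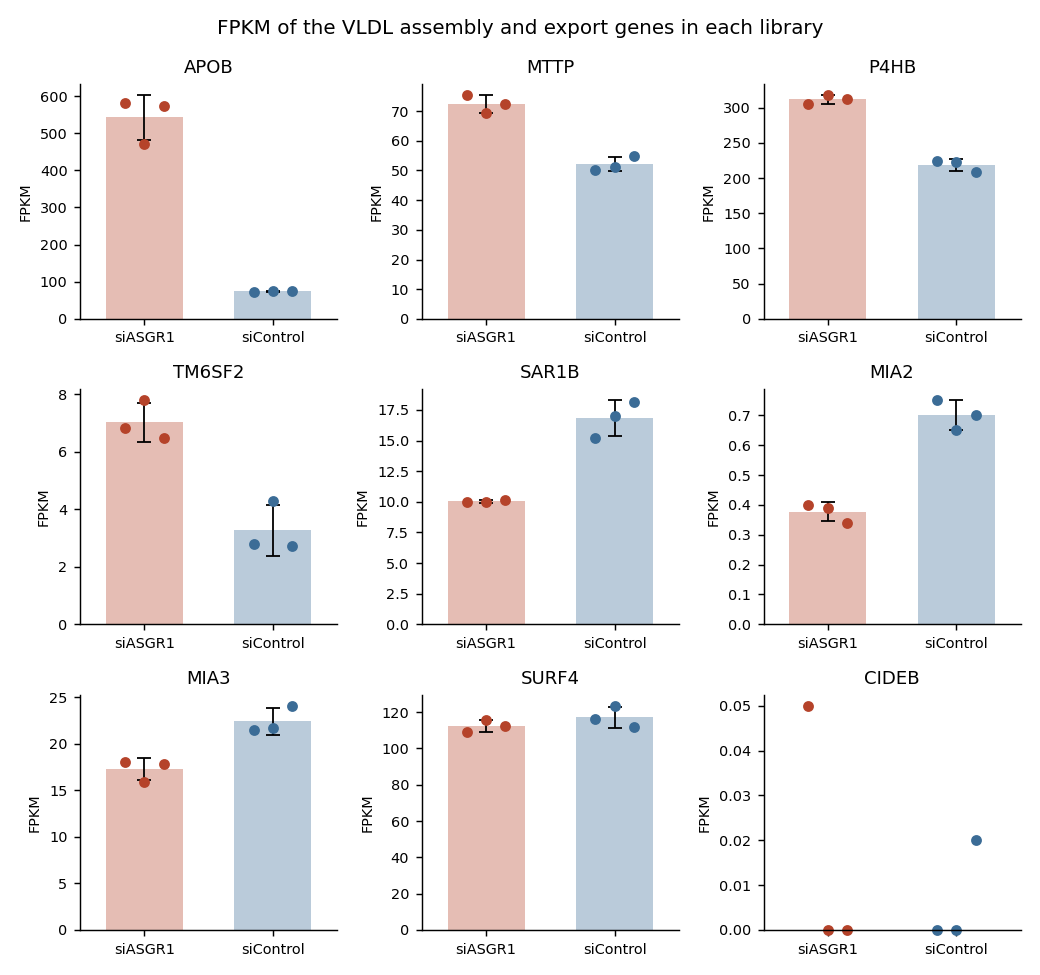
FPKM of the 9 genes, with siASGR1 libraries on the left and siControl libraries on the right of each panel; points are libraries, bars are means and whiskers are SDs (n = 3 each), and CIDEB is drawn as points only. The siASGR1 points lie above all siControl points for APOB, MTTP, P4HB and TM6SF2, below them for SAR1B, MIA2 and MIA3, and among them for SURF4.

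APOB (ENSG00000084674; GRCh38 chromosome 2, 21001429 to 21044073, minus strand) encodes the particle's scaffold. It had 580.77, 472.17 and 574.14 FPKM in the siASGR1 libraries, against 72, 74.86 and 75.96 FPKM in siControl. Every siASGR1 library was far above every siControl library, and the second siASGR1 library was the lowest of its group. The mean was 542.4 ± 60.9 FPKM in siASGR1 and 74.3 ± 2.04 FPKM in siControl (SD, n = 3 each), a 7.30-fold difference. The log2 fold change was 2.85 (SE 0.08, limma adjusted p = 2.03e-06), which ranked APOB at place 4 of 13568 tested genes in order of increase. APOB mRNA took 0.861%, 0.700% and 0.851% of all fragments in siASGR1, against 0.107%, 0.111% and 0.113% in siControl, with the exon length of 14828 bases in GENCODE v29. That is 129427 to 164206 rebuilt fragments per siASGR1 library and 18315 to 20617 per siControl library, so counting error is small beside the spread between libraries.

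The lower APOB value of the second siASGR1 library was 81.8% of the mean of the other two. Of the other tested members with more than 10000 exon bases, SAR1B was at 98.8% there and MIA3 at 88.6%, and TM6SF2, the shortest, was at 117.1%. Across tested genes with exons of at least 10000 bases, that library was lower than the mean of the other siASGR1 libraries by a median of -0.09 on the log2 scale, and across genes under 2000 bases it differed by 0.05. Without it the log2 fold change of APOB was 2.94, and with values centred within 20 classes of exon length, an alternative chosen after the data were seen, it was 2.98. The part of transcript length in the lower value was not tested.

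The genes with values most like those of APOB, by distance in log2(FPKM + 1) from the siControl mean over the 6 libraries, were MT1G, H2BC12 and MT1E. MT1G and MT1E encode metallothioneins and H2BC12 a histone. H2BC12 had 98.89, 103.93 and 95.56 FPKM in siASGR1, against 17.22, 14.8 and 18.3 FPKM in siControl. MT1G had 7.55, 8.87 and 6.92 FPKM in siASGR1, against 0, 0 and 0.41 FPKM in siControl. MT1E had 9.5, 8.59 and 9.18 FPKM in siASGR1, against 0.1, 0 and 0.06 FPKM in siControl. By mean FPKM, MT1G was 56.9-fold higher, MT1E 170-fold and H2BC12 5.93-fold, against 7.30-fold for APOB. Adding 1 to FPKM shrinks folds from levels near 0, as those of MT1G and MT1E. MT1G, MT1E and H2BC12 all have near-identical copies in the genome, so their reads may have been split between copies.

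MTTP (ENSG00000138823; GRCh38 chromosome 4, 99563761 to 99623999, plus strand) encodes the subunit that transfers triglyceride and phospholipid to nascent apoB. It had 75.48, 69.25 and 72.32 FPKM in siASGR1, against 50.31, 51.08 and 54.81 FPKM in siControl. The groups did not overlap, and the difference was 1.39-fold (log2 fold change 0.47, SE 0.05, adjusted p = 0.000187). P4HB (ENSG00000185624; GRCh38 chromosome 17, 81843159 to 81860694, minus strand) encodes protein disulfide isomerase, which keeps MTTP soluble in the ER lumen and also serves other enzymes. P4HB had 305.27, 318.25 and 311.88 FPKM in siASGR1, against 224.21, 223.4 and 209.11 FPKM in siControl. Its difference was 1.42-fold (log2 fold change 0.51, SE 0.04, adjusted p = 6.01e-05), close to that of MTTP, again with no overlap of the groups. Libraries that do not overlap were common, since 67.3% of all tested genes showed this.

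Ratios between members within a library do not change with the scaling between libraries. The ratio of P4HB to MTTP was 4.04, 4.596 and 4.31 in siASGR1, against 4.46, 4.37 and 3.82 in siControl, so the groups overlapped for the mRNAs of the transfer complex (exact permutation test, two-sided, p = 0.7). The ratio of APOB to MTTP was 7.69, 6.82 and 7.94 in siASGR1, against 1.43, 1.47 and 1.39 in siControl, which is 5.23-fold higher. The ratio of APOB to SURF4 was 7.58-fold higher, at 4.84 ± 0.67 in siASGR1 and 0.63 ± 0.04 in siControl (SD, n = 3 each). For both ratios every siASGR1 library lay above every siControl library, with an exact permutation p = 0.1, the smallest that 3 against 3 libraries can give (0.15 after Benjamini-Hochberg adjustment over the 3 ratios).

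**Figure D2:**
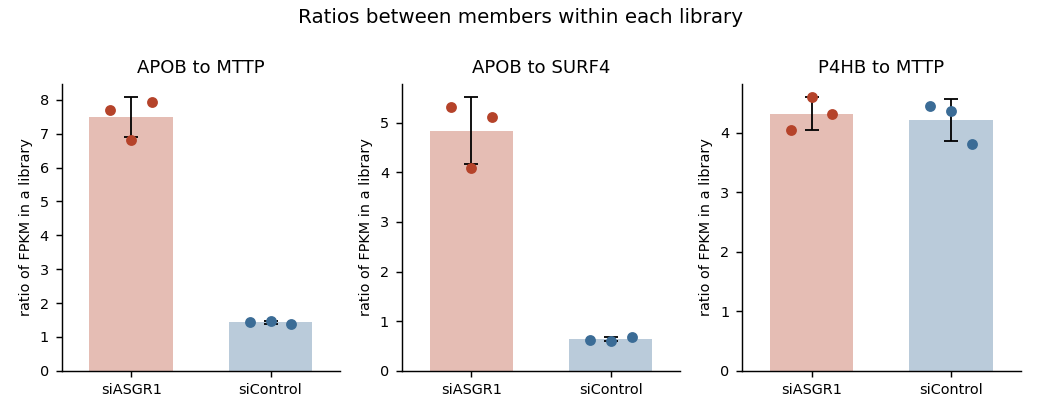
Ratios of FPKM between members in each library, siASGR1 on the left and siControl on the right of each panel (points are libraries, bars are means, whiskers are SDs, n = 3 each). APOB rose relative to both MTTP and SURF4, with APOB to MTTP ratios of 6.82 to 7.94 in siASGR1 and 1.39 to 1.47 in siControl, whereas the P4HB to MTTP ratios of the groups overlap.

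TM6SF2 (ENSG00000213996; GRCh38 chromosome 19, 19264364 to 19273391, minus strand) encodes a membrane protein of the ER and its exit region that is needed for full lipidation of VLDL. It had 6.82, 7.79 and 6.48 FPKM in siASGR1, against 2.79, 4.3 and 2.72 FPKM in siControl. The difference was 2.15-fold (log2 fold change 0.93, SE 0.14, adjusted p = 0.0011), and the second siControl library stood above the other two of its group. It rested on 274 to 315 rebuilt fragments per siASGR1 library and 97 to 159 per siControl library. AC138430.1, a transcript annotated on the same strand that shares 46.7% of the exon bases of TM6SF2, was at most 0.14 FPKM in siASGR1 and 0.18 FPKM in siControl. Whether reads in those shared bases were left uncounted for TM6SF2 was not tested. CIDEB (ENSG00000136305; GRCh38 chromosome 14, 24305096 to 24311430, minus strand), a lipid droplet protein with a role in VLDL lipidation in mouse liver, was listed at 0.05, 0 and 0 FPKM in siASGR1 and at 0, 0 and 0.02 FPKM in siControl. These values correspond to 3 fragments in a single siASGR1 library and 1 in a single siControl library, and 3 fragments correspond to 0.049 to 0.058 FPKM at these depths. In the v29 annotation 61.1% of CIDEB exon bases are also exon of NOP9 on the opposite strand, which had 14.6 to 16.7 FPKM in siASGR1 and 14.3 to 15.3 FPKM in siControl. LTB4R2, also on the opposite strand, shares 39.9% of CIDEB exon bases. It had 0.83 to 1.6 FPKM in siASGR1 and 0.97 to 1.36 FPKM in siControl. Together these shares could cover nearly all CIDEB exon bases. No source used here gives the counting program or its strand setting, and whether reads in the shared bases were left uncounted was not tested.

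Promoter sequences from RefSeq (GRCh38.p14) were available for 7 of the 9 genes, in 9 windows. There was none for APOB or MIA2, so the promoters of these genes were not examined. The 250 bases before the transcript start are printed for the transfer complex subunits and TM6SF2, which rose, for SAR1B, which fell, and for the downstream start of CIDEB, which was barely detected. Capitals mark matches, on either strand, to motifs chosen with these sequences and results known: AAGGTCA, the core bound by nuclear receptors such as HNF4A, the longer HNF4A site CAAAGTCCA, and the CCAAT box.
MTTP, downstream start, chr4:99574574-99574823, plus strand: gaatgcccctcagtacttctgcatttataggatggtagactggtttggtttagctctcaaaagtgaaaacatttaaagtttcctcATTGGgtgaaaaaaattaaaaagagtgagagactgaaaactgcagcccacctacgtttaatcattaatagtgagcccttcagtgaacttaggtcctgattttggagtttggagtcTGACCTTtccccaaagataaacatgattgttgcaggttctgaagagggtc
P4HB, chr17:81860536-81860785, minus strand: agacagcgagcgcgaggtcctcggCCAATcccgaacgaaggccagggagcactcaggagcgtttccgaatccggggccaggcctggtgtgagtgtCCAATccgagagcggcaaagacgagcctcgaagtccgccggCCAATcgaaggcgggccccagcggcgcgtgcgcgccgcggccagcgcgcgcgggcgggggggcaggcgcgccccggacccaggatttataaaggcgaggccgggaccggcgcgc
TM6SF2, chr19:19273302-19273551, minus strand: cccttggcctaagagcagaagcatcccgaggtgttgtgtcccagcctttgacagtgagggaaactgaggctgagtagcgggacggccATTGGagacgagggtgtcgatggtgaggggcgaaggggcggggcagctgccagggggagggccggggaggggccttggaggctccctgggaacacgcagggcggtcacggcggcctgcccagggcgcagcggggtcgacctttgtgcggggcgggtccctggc
SAR1B, chr5:134632829-134633078, minus strand: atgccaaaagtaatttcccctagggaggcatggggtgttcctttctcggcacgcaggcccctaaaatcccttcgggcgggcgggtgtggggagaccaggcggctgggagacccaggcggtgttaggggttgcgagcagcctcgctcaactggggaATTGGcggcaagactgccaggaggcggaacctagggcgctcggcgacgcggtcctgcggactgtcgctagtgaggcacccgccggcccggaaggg
CIDEB, downstream start, chr14:24307978-24308227, minus strand: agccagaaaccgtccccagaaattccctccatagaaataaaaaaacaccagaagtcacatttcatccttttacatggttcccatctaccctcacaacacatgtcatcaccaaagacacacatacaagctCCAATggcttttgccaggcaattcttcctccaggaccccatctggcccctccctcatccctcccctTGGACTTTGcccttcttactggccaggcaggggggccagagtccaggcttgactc
The MTTP window held AAGGTCA, read on the opposite strand, 50 to 44 bases before the start, a motif found in 3.44% of all 35116 RefSeq windows of this length. The CIDEB window held CAAAGTCCA, also on the opposite strand, 55 to 47 bases before the start, which 0.325% of all windows hold. CCAAT occurred in 32.0% of all windows. P4HB held it 3 times, and each of the other 4 windows printed held it 1 time. None of the 9 windows held an exact match to the sterol regulatory element TCACNCCAC (0.883% of all windows), the E-box CACGTG (6.34%) or the HNF1 core GTTAAT (6.23%). Only exact matches to the motifs were sought, so sites that differ from them were not examined, and absence of a match does not show absence of a site. The UPR element core TGACGT (7.10%) was found before the upstream MTTP start and in the MIA3 window, and CCACG, the end of the ER stress element (33.5%), in the SURF4 window alone, 4 times. The MIA3 window, at 222644079 to 222644328, lies inside the gene, which starts at 222618086 in v29, so that start was not examined. The SAR1B window also lies inside its v29 span, which begins at 134649271 on the minus strand. AAGGTCA and CAAAGTCCA were found in no other window, including those of P4HB, TM6SF2 and the upstream MTTP start. HNF4A mRNA was higher in siASGR1, as given with the transcription factors. Whether HNF4A or any of these motifs has a part in the changes was not tested.

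Of the 4 genes of ER exit, SAR1B and MIA3 were called lower, SURF4 was not called and MIA2 was under the filter. SAR1B (ENSG00000152700; GRCh38 chromosome 5, 134601144 to 134649271, minus strand) encodes the GTPase that starts COPII coat assembly and whose loss in humans causes chylomicron retention disease. It had 9.97, 9.95 and 10.18 FPKM in siASGR1, against 15.24, 17 and 18.17 FPKM in siControl. All siASGR1 libraries were below all siControl libraries, and the difference was 1.67-fold (log2 fold change -0.69, SE 0.06, adjusted p = 0.000107). SEC24A on the opposite strand shares 3.51% of its exon bases. MIA3 (ENSG00000154305; GRCh38 chromosome 1, 222618086 to 222668012, plus strand), also known as TANGO1, encodes an organizer of exit sites for bulky cargo such as procollagen. MIA3 had 18, 15.88 and 17.84 FPKM in siASGR1, against 21.46, 21.75 and 24.08 FPKM in siControl. It was 1.30-fold lower (log2 fold change -0.36, SE 0.07, adjusted p = 0.00247). This call was lost with upper-quartile scaling (log2 fold change -0.14, adjusted p = 0.0776).

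MIA2 (ENSG00000150527; GRCh38 chromosome 14, 39230231 to 39388513, plus strand) encodes TALI, a partner of MIA3 in the export of lipoproteins. It had 0.4, 0.39 and 0.34 FPKM in siASGR1, against 0.75, 0.65 and 0.7 FPKM in siControl, so the libraries did not overlap but all lay under the filter. With no filter on low values the log2 fold change was -0.30 (adjusted p = 0.0458). Older annotations gave this locus as separate genes, MIA2 and CTAGE5, and no source used here names the annotation behind the deposited values, so its level is uncertain. SURF4 (ENSG00000148248; GRCh38 chromosome 9, 133361449 to 133376166, minus strand) encodes the cargo receptor that in mouse liver binds apoB lipoproteins for export. SURF4 had 109.11, 115.86 and 112.17 FPKM in siASGR1, against 116.14, 123.51 and 111.97 FPKM in siControl, and the groups overlapped. Its log2 fold change was -0.06 (95% confidence interval -0.17 to 0.05, adjusted p = 0.309). The direction of SURF4 depended on the scaling, at 0.17 with upper-quartile scaling (adjusted p = 0.031) and -0.19 with quantile normalization (adjusted p = 0.00924).

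In order of level, siASGR1 libraries had APOB first, followed by P4HB, SURF4, MTTP, MIA3, SAR1B, TM6SF2, MIA2 and CIDEB. In siControl, P4HB came first, followed by SURF4, APOB and MTTP, with the rest in the same order. No neighbours in either order had overlapping ranges of FPKM. APOB mRNA was therefore the most abundant of the 9 per length in siASGR1 and the third in siControl.

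**Figure D3:**
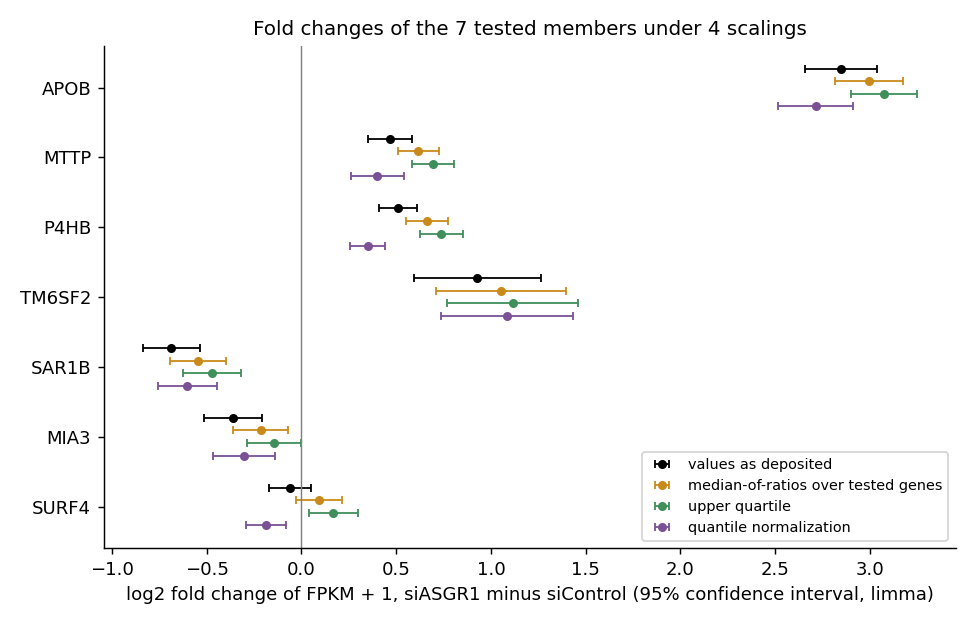
Log2 fold changes of FPKM + 1, siASGR1 minus siControl, of the 7 members tested, with 95% confidence intervals from limma, for values as deposited and for 3 other scalings. APOB, MTTP, P4HB and TM6SF2 stay above 0 and SAR1B and MIA3 below 0 in all 4, whereas SURF4 changes sign.

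Genes of the COPII coat and of exit sites package cargo at the ER. In the values as deposited they were, like all tested genes, more often called lower than higher. Of 14 tested genes of this list 8 fell, 2 rose and 4 were not called, with a median log2 fold change of -0.26, against -0.13 for all genes and a background of 40.4% lower. The coat subunit SEC13 had 57.2 ± 2.89 FPKM in siASGR1 and 88.6 ± 3.27 FPKM in siControl (SD, n = 3 each). The cargo adaptors SEC24A and SEC24C were 1.44-fold and 1.305-fold lower, and PREB, the exchange factor that activates SAR1 proteins, was 1.40-fold lower. With median-of-ratios scaling over the tested genes 7 fell and 3 rose, against 28.6% lower and 30.1% higher of all tested genes. The list's median log2 fold change was then -0.11. SAR1A, the paralog of SAR1B, had 17.9 ± 0.36 FPKM in siASGR1 and 24.3 ± 1.72 FPKM in siControl (adjusted p = 0.0005), and was named after its values were seen.

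Of 16 tested cargo receptors of the early secretory pathway 4 were higher and 6 lower, near the background of 20.9% higher and 40.4% lower. With median-of-ratios scaling over the tested genes 4 were higher and 4 lower, against 30.1% and 28.6%. The counts set the list apart in neither direction. TMED3, a p24 cargo receptor, had 58.8 ± 3.82 FPKM in siASGR1 and 115.2 ± 6.96 FPKM in siControl. TMED4 and TMED7 were 1.28-fold and 1.60-fold lower. BCAP31, an ER membrane chaperone, was 1.75-fold higher.

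Several ER chaperones were higher, and others overlapped between the groups. Of 18 genes of apoB folding and degradation 9 rose and 3 fell, with a median log2 fold change of 0.18 and a background of 20.9% higher. With median-of-ratios scaling over the tested genes 12 rose and 2 fell, against 30.1% and 28.6% of all tested genes. HSPA5, the luminal Hsp70 chaperone BiP, had 286.8 ± 3.67 FPKM in siASGR1 and 154.3 ± 3.04 FPKM in siControl. The lectin chaperone CALR had 648.6 ± 28.8 FPKM in siASGR1 and 304.4 ± 3.81 FPKM in siControl. The disulfide isomerase PDIA4 and the chaperone HSP90B1 were 1.65-fold and 1.52-fold higher. ERP44, DNAJB11 and DNAJC3, also luminal, overlapped between the groups at 1.03-fold, 0.967-fold and 1.12-fold, and the genes that rose included VCP and UFD1, which act in protein degradation from the cytosol. The members that fell were SVIP, DERL1 and SYVN1, of which DERL1 and SYVN1 carry out ER-associated degradation. These 8 genes were named after their values were seen. SVIP had 5.71 ± 0.34 FPKM in siASGR1 and 11.3 ± 0.73 FPKM in siControl.

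P4HB also serves collagen prolyl 4-hydroxylase and is reoxidized by other ER enzymes, and of 5 tested partners 3 were higher and 2 lower, against 20.9% and 40.4% of all tested genes. A list of 5 genes is too short to read against that background. PRDX4, an ER peroxidase, rose 2.77-fold, to 127.1 ± 6.46 FPKM in siASGR1, against 45.9 ± 1.27 FPKM in siControl. P4HA1, a catalytic subunit of the hydroxylase, was 1.35-fold higher, whereas its isoform P4HA2 was 1.30-fold lower and the oxidase ERO1B 2.21-fold lower.

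Of 23 tested genes that supply lipid for VLDL 10 were higher and 7 lower, against 20.9% and 40.4% of all tested genes, with a median log2 fold change of 0.08. With median-of-ratios scaling over the tested genes 12 were higher and 6 lower, against 30.1% and 28.6%. AADAC, an ER lipase linked to VLDL lipid, had 8.92 ± 0.77 FPKM in siASGR1 and 2.09 ± 0.23 FPKM in siControl. SMLR1, an ER membrane protein linked to VLDL export in mouse liver, had 8.76 ± 0.63 FPKM in siASGR1 and 2.37 ± 0.11 FPKM in siControl. The phospholipid remodelling enzyme LPCAT3 had 34.1 ± 0.36 FPKM in siASGR1 and 15.7 ± 0.53 FPKM in siControl, and PLIN2, a lipid droplet protein, was 2.19-fold higher. Among the genes that fell was FITM2, a protein of lipid droplet formation, with 4.71 ± 0.22 FPKM in siASGR1 and 10.2 ± 0.35 FPKM in siControl. FITM2 and PLA2G12B were named after their values were seen. PLA2G12B, which acts in lipoprotein loading in mouse liver, had 29.1 ± 2.21 FPKM in siASGR1 and 31.4 ± 1.73 FPKM in siControl (adjusted p = 0.186).

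Of 19 tested transcription factors listed for APOB and MTTP, 5 rose and 8 fell, near the background of 20.9% higher and 40.4% lower. With median-of-ratios scaling over the tested genes 7 rose and 6 fell, against 30.1% and 28.6%. HNF4A, which activates both genes, had 67.8, 68.16 and 67.94 FPKM in siASGR1, against 30.12, 31.71 and 27.89 FPKM in siControl, 2.27-fold higher with no overlap. SREBF1 was 4.75-fold higher, while SREBF2 and FOXA2 were 1.99-fold and 1.81-fold lower. Of 8 tested genes for the later fate of apoB and its particles 5 rose and 1 fell, against 20.9% and 40.4% of all tested genes. This list of 8 is also too short to read against that background. With median-of-ratios scaling over the tested genes 7 rose, against 30.1% of all tested genes, and 1 was not called. That 1 was SORT1, a sorting receptor, with a limma adjusted p = 0.806 under this scaling and 0.0415 in the values as deposited, where it was the gene that fell. SCARB1, APOE and APOC3 were 1.67-fold, 1.65-fold and 1.77-fold higher. A1CF, a cofactor of the APOB mRNA editing enzyme, was 1.56-fold higher, whereas the gene of that enzyme, APOBEC1, had 0 FPKM in every library, where 3 fragments would have given 0.175 to 0.208 FPKM. APOBEC1 and SORT1 were named after their values were seen.

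**Figure D4:**
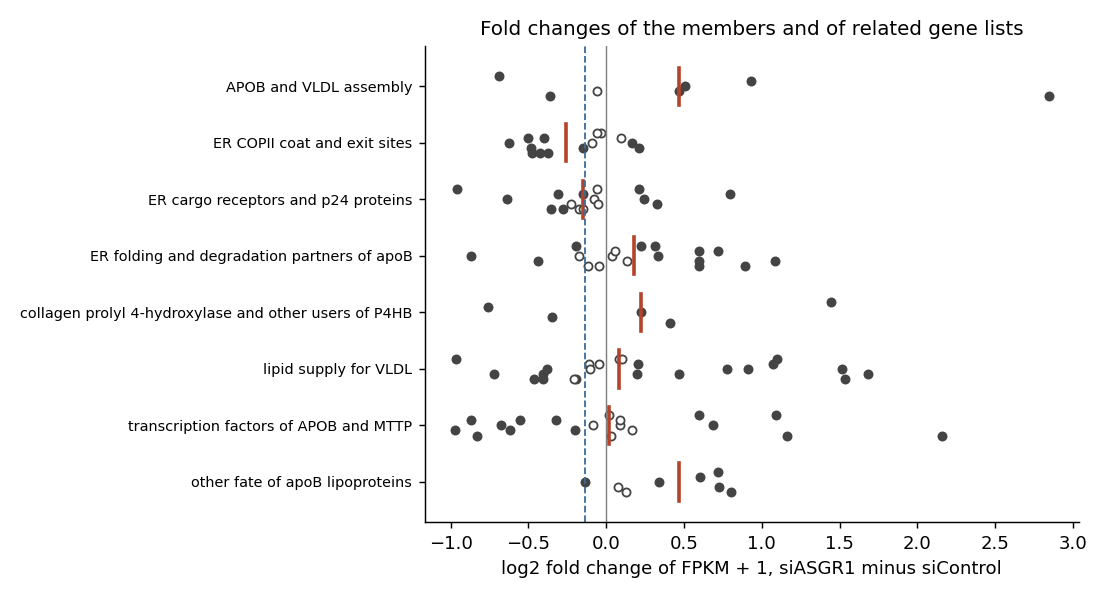
Log2 fold changes of FPKM + 1, siASGR1 minus siControl, for the tested members (top row) and the related gene lists; filled points were called by limma, open points were not, red bars are list medians, and the dashed line is the median of all tested genes (-0.13). APOB lies at 2.85, the COPII list has a median of -0.26 and the folding list a median of 0.18.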

How the data were processed

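For the 6 Huh7 RNA-seq libraries, the submitters' processing notes name HISAT2 2.0.1, cutadapt 1.9.1, bcl2fastq 2.17.1.14 and the build hg19. Counter, strand setting and annotation: not given in the sources used here. Values as the authors deposited them are FPKM with 2 decimals, per the file headers, in a table of the whole series, which is used here, and in 1 file per library.

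Symbols were matched for 51996 of 57905 IDs, and coordinates and exon lengths are those of GENCODE v29 (GRCh38), with none converted from hg19. limma 3.58.1 in R 4.3.3 was fitted on log2(FPKM + 1), with the group as the only term, a prior that follows the level, two-sided tests and Benjamini-Hochberg adjustment over all 13568 tested genes. This scale understates folds of low genes. Fold values without "log2" are ratios of mean FPKM. Fragments were rebuilt from FPKM, length and the depth at which low values became whole (97.5% to 97.8% whole within 0.1 of a fragment); the depth was fitted to that share. Limits from 3 fragments cover counting error only. No pair of libraries in a group agreed within sampling noise (chi-square over degrees of freedom 2.49 to 5.20). In simulated data the fit recovered 26%, 82%, 96% and 92% of 1.2-fold, 1.5-fold, 2-fold and 4-fold changes (50 genes each). In the same order, 46, 49, 49 and 47 of each 50 passed the filter on low values, and the rest count as not recovered. Only these genes of 13121 were changed, in both directions and with 1 dispersion for all genes. The simulation therefore lacks the broad shift of the data. Of the fit's 160 calls there, 12 were false.

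The members, the gene lists and the rule for names were chosen with earlier results of these data known. Besides all members, the text names the called genes lowest in p-value, at most 4 per list, and the 3 genes nearest to APOB. Of the gene lists, only genes with a matching symbol and above the filter were tested. Other steps used Python 3.11.15 with scipy 1.17.1, pandas 2.3.3, numpy 2.4.6 and matplotlib 3.10.9.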

Additional observations from a re-analysis of the deposited data

How the results depend on the processing

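The alternatives covered 5 other scalings, of which median-of-ratios over the tested genes was chosen after the data were seen, centring within length classes (also chosen then), other pseudocounts, filters and priors, a replicate block, limma-voom on the rebuilt fragments, the single files and leaving out each library. APOB (2.72 to 3.07), MTTP (0.40 to 0.69), P4HB (0.35 to 0.74), TM6SF2 (0.84 to 1.13) and SAR1B (-0.75 to -0.47) kept their direction and their call in all 21 alternatives. MIA3 kept its direction in all 21 and lost its call with upper-quartile scaling (-0.14), so that 1 member was then called lower. SURF4 turned to 0.14 with median-of-ratios scaling over all genes above 0, 0.17 with upper-quartile scaling, 0.092 with median-of-ratios over the tested genes and 0.031 with length-class centring, and was called lower with quantile normalization (-0.19). MIA2 was -0.55 (adjusted p = 0.0242) on values rescaled to TPM. Leaving out 1 library gave 2.79 to 2.94 for APOB, and -0.034 (without siControl replicate 3) to 0.082 for the log2 difference of the P4HB to MTTP ratio, which also turned to -0.0099 without siASGR1 replicate 2. Of all genes, 4548 were called higher and 3439 lower with median-of-ratios over all genes above 0, and 4789 and 3215 with upper-quartile scaling. At FPKM of at least 5, 3382 of 7829 tested genes were called lower, against 5480 of 13568 in the main fit. With the replicate block, which changed no member's call, APOB had a limma adjusted p = 9.57e-05 and all genes gave 2761 higher and 5303 lower. Deviations of same-numbered libraries correlated at -0.019, 0.0021 and 0.012. These values show no pairing by number, but they cannot exclude a shared day or batch, which the labels do not state. Genes under 1 FPKM, here MIA2 and CIDEB, are limited by depth.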
